A study of Mus musculus with 32 samples.

Results

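The 8 genes described here write, maintain or remove 5-methylcytosine in DNA or belong to a family that reads it: Dnmt1, Dnmt3a, Dnmt3b, Uhrf1, Tet1, Tet2, Tet3 and Mbd3. They were chosen by name, are 8 of the 32285 genes counted in the series, and each had UMIs in every class of cells described here. RNA of single cells was counted from the dorsal telencephalon of C57BL/6J embryos that were wild type (WT) or heterozygous for Chd8 (Chd8+/-, here Chd8 het), a gene for a chromatin remodelling protein linked to autism. The labels do not give the construction of the Chd8 allele or a restriction of it to some cells, and the medial part of the tissue was removed at dissection. The earliest embryos were taken at E12.5 and the oldest at E17.5, with E14.5 and E16.0 as intermediate stages. Each genotype had 4 libraries at a stage, named M1 and M2 (male) and F1 and F2 (female), so that 32 libraries form 8 groups and 16 litter- and sex-matched pairs.

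DNA methyltransferases place methyl groups on cytosines. Dnmt1 copies existing methylation onto new strands behind the replication fork, and Uhrf1 recognises hemimethylated sites and brings Dnmt1 to them, whereas Dnmt3a and Dnmt3b methylate unmethylated sites. The Tet enzymes oxidise 5-methylcytosine, a step towards its removal, and 5-hydroxymethylcytosine is abundant in neurons. Mbd3 belongs to the methyl-CpG-binding domain family but binds methylated DNA poorly, and it is a subunit of the NuRD complex, which combines histone deacetylation with chromatin remodelling.

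All positions are of build GRCm38. Dnmt1 lies on chromosome 9 from 20907209 to 20959888, Dnmt3a on chromosome 12 from 3806007 to 3914443, and Dnmt3b on chromosome 2 from 153649450 to 153687730. Uhrf1 lies on chromosome 17 from 56303321 to 56323486. Tet1 lies on chromosome 10 from 62804570 to 62908996, Tet2 on chromosome 3 from 133463679 to 133545139, and Tet3 on chromosome 6 from 83362373 to 83459084. Mbd3 lies on chromosome 10 from 80392539 to 80399550. Dnmt3a, Dnmt3b, Uhrf1 are on the plus strand and the others on the minus strand. Each of these intervals spans a whole protein-coding gene, exons and introns included. Annotated genes overlap Dnmt3a (Dnmt3aos), Dnmt3b (Dnmt3bos), Tet2 (Gm42567) and Tet3 (B230319C09Rik) on the opposite strand, and others overlap Dnmt1, Tet1 and Tet3 on the same strand. The sources used here do not give the counting rule for such overlaps, so the values of all members but Uhrf1 and Mbd3 carry that uncertainty.

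Uhrf1 and Dnmt1 were the members whose promoters held a match to the consensus of E2F factors, which drive genes of DNA replication. The stretches with these matches are shown here. The letters TTTCCCGC, TTTGGCGC, TTTCGCGC and TTTGCCGC were searched on both strands of RefSeq promoter windows (build GRCm38.p6) from 250 bases before to 50 bases after each annotated start. All 8 members had an entry, with 13 windows in all, of which 2 held a match. Among all 32851 windows 744 did, or 2.26%. Capitals mark the match, and 5′ to 3′ runs along the strand of the gene. The Uhrf1 stretch covers the 250 bases before the start at chr17:56304063-56304312 on the plus strand. The Dnmt1 stretches lie on the minus strand at chr9:20952825-20952852 and chr9:20952574-20952600, and the capitals of the first are the reverse complement of TTTCGCGC.
Uhrf1 promoter: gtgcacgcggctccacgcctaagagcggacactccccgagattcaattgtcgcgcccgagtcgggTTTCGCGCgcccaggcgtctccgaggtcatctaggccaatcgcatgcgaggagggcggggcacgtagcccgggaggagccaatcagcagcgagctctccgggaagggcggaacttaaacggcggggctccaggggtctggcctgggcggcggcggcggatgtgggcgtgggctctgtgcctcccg
Dnmt1 promoter, upstream match: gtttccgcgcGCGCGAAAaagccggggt
Dnmt1 promoter, downstream match: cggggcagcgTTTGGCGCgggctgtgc
The matches start at -185 in Uhrf1 and at -219 and 34 in Dnmt1, counted from the start of the window's transcript. The other Dnmt1 windows, at chr9:20952930-20953229 and chr9:20959839-20960138, held no match. Both lie upstream of the Dnmt1 stretches shown, which are thus inside the gene as annotated from those starts. The other Uhrf1 window, at chr17:56303087-56303386, also held no match. It lies upstream of the Uhrf1 stretch shown, which is thus inside the gene as annotated from that start. These are matches of letters, and no binding was measured.

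Each library came from a droplet-based 3′ kit, in which a unique molecular identifier (UMI) marks one captured RNA molecule. After filters on UMIs, genes and mitochondrial reads and removal of 5471 likely doublets, 138226 cells remained, from 2399 to 6951 per library. The deposited counts summed to between 14710694 and 66499864 UMIs per library, and the median cell held 4017 to 10727. Chd8 RNA itself was lower in the Chd8 het library in 15 of 16 pairs, at 29.6 ± 6.70 CPM against 40.7 ± 1.78 CPM at E12.5 and 43.8 ± 3.93 against 54.3 ± 2.55 CPM at E16.0 (SD, n = 4). The groups overlapped at E14.5 (37.6 ± 5.17 against 43.97 ± 4.96 CPM) and E17.5 (58.5 ± 14.96 against 64.4 ± 12.6 CPM). Libraries that stood apart from the others of their stage on the leading principal components were 3 at E17.5 (WT M1, Chd8 het M1 and Chd8 het F1) and the F1 pair at E14.5. No label gives a batch or a date of preparation. The submitters' library codes have another form for the M1 and F1 pairs of E17.5, which include those 3 libraries, and the leading part of the code is particular to the F1 pair at E14.5. No leading part was shared between stages, so stage cannot be told apart from what the codes stand for. Pairs of libraries shared 7 to 61 cell barcodes, at most 1.29% of the smaller library.

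Cells were classed by detection (at least 1 UMI) of Sox2, a radial glia gene, Eomes, an intermediate progenitor gene, Neurod6, an excitatory neuron gene, or Gad2, an interneuron gene. There were 54244 Sox2-detected, 32041 Eomes-detected, 85319 Neurod6-detected and 4757 Gad2-detected cells. These classes overlap: 29.7% of Sox2-detected cells also had Neurod6, and 75.4% of Eomes-detected cells did. Classes are therefore compared with each other only over cells with exactly 1 of the 4 markers, called Sox2-only (31084 cells), Eomes-only (2503), Neurod6-only (53279) and Gad2-only (1380). Levels are CPM, the usual scaling of a gene's UMIs by all UMIs of its class in a library, given as mean ± SD. Since 3′ counts are not scaled to length, they are compared within a gene and not between genes. A level summed over a class cannot tell fewer expressing cells from less RNA per cell. All adjusted p-values are from edgeR's quasi-likelihood test with Benjamini-Hochberg adjustment over all tested genes, and a difference was called at an adjusted p under 0.05.

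Sox2, Eomes, Neurod6 and Gad2 define the classes and are at 0 CPM in the other classes of cells with 1 marker by that rule. Most of the other markers of the 4 cell types had their highest mean in the class of that type. Mef2c, Bcl11b and Neurod1 were exceptions. The excitatory neuron markers Mef2c (594 against 392 CPM) and Bcl11b (397 against 355 CPM) were higher in Gad2-only than in Neurod6-only cells, and the intermediate progenitor marker Neurod1 was higher in Neurod6-only than in Eomes-only cells (118 against 42.6 CPM). Neurod2 averaged 954 CPM in Neurod6-only and 12.3 CPM in Sox2-only cells, while Fabp7 averaged 247 against 6815 CPM and Pax6 35.4 against 411 CPM. The summed level of 8 interneuron markers, Gad2 itself among them, lay between 2175 and 3657 CPM in WT Gad2-only libraries. Single WT Gad2-only libraries also held transcripts of other cells, with sums of up to 2713 CPM for endothelial and 599 CPM for pericyte markers at E16.0 and up to 479 CPM for microglia markers at E17.5, while the lowest library of each list lay between 0 and 11.2 CPM. The Sox2-only class was not radial glia alone at the last stage: the sum of 4 oligodendrocyte-lineage markers ran from 0.789 to 1.66 CPM in WT Sox2-only cells at E12.5 and from 383 to 900 CPM at E17.5. Red blood cell transcripts were present in each class at widely varying levels, from 656 to 5955 CPM in WT Sox2-only and from 6950.1 to 23537 CPM in WT Neurod6-only cells at E12.5. In WT Eomes-only cells they ran from 176 to 50434 CPM at E12.5 and from 101 to 83198 CPM at E14.5, and WT Gad2-only cells ran from 124 to 46104 CPM at E14.5. Their part in the results was not tested.

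The maintenance genes Uhrf1 and Dnmt1 were lower in Neurod6-only than in Sox2-only cells, with Uhrf1 showing the widest gap of the 8. In WT embryos all 8 members differed between Neurod6-only and Sox2-only cells, 6 being lower and 2 higher in Neurod6-only cells. The background is wide, since 86.5% of all genes tested were called in that comparison. The median log2 difference of the 8 members was -0.54, against 0.02 over all genes tested.

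Uhrf1 measured 106, 118, 104 and 106 CPM in the M1, M2, F1 and F2 libraries of WT Sox2-only cells at E12.5. At E17.5 it measured 67.6, 71.9, 68.4 and 83.3 CPM there. In Neurod6-only cells it measured 16.7, 34.2, 19.1 and 19.5 CPM at E12.5 and 2.37, 3.95, 4.03 and 6.52 CPM at E17.5. The ranges of these classes were far apart at both stages, and every Neurod6-only library lay below every Sox2-only library of its stage. The log2 fold change, averaged over stages, came to -3.57 (SE 0.10, adjusted p = 9.93e-20), 0.0839 times the Sox2-only level. Radial glia genes, which neurons should lack, give the level that stray RNA can reach: Hes5 averaged 18.9 CPM in Neurod6-only and 342 CPM in Sox2-only cells, and Sox9 20.9 against 247 CPM. The Uhrf1 means over the 16 WT libraries were 9.97 ± 8.59 and 93.9 ± 15.1 CPM, and levels as low as those in Neurod6-only cells from E14.5 on cannot be told from stray RNA.

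Dnmt1 was lower in Neurod6-only cells by a smaller amount, and unlike Uhrf1 the difference narrowed with age. It averaged 76.4 ± 5.28 CPM in Sox2-only and 32.1 ± 2.12 CPM in Neurod6-only WT cells at E12.5 (n = 4). At E17.5 the means were 68.1 ± 15.4 and 45.4 ± 12.8 CPM, and the ranges, 57.5 to 90.7 and 31.8 to 62.0 CPM, overlapped. In order of stage the log2 fold changes were -1.27, -0.74, -0.31 and -0.52, with an average of -0.71 (SE 0.04, adjusted p = 5.52e-14). The change of the difference from E12.5 to E17.5 was called for Dnmt1 (0.74, SE 0.12, adjusted p = 2.3e-05) and, in the opposite direction, for Uhrf1 (-1.75, SE 0.32, adjusted p = 0.000107). It was also called for Dnmt3b (1.69, SE 0.49, adjusted p = 0.00717), which had only 1 to 9 UMIs per library in Sox2-only cells at E17.5. For the other 5 members it was not called. Over all genes 45.6% were called for such a change.

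Among the de novo enzymes, Dnmt3a was lower in neurons at each stage. It measured 50.7, 46.1, 49.5 and 48.8 CPM in WT Sox2-only cells at E12.5 against 25.8, 21.5, 22.5 and 22.1 CPM in Neurod6-only cells. At E17.5 the values were 76.9, 58.7, 47.0 and 41.0 CPM against 26.3, 15.2, 19.2 and 19.6 CPM. The classes did not overlap at either stage, and the averaged log2 fold change was -1.36 (SE 0.05, adjusted p = 3.06e-17). Dnmt3b was scarce in each class. Its averages over the 16 WT libraries were 5.06 ± 2.06 CPM in Sox2-only and 2.28 ± 0.364 CPM in Neurod6-only cells, with a log2 fold change of -0.99 (SE 0.16, adjusted p = 7e-06).

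Of the erasers, Tet2 and Tet3 were higher in neurons and Tet1 differed little. Tet3 measured 26.3, 22.2, 25.8 and 23.3 CPM in WT Sox2-only cells at E12.5 and 41.4, 43.1, 46.2 and 43.9 CPM in Neurod6-only cells. Averaged over stages the log2 fold change of Tet3 was 0.89 (SE 0.04, adjusted p = 4.75e-16). Tet2 averaged 8.79 ± 2.05 CPM in Sox2-only and 18.6 ± 5.59 CPM in Neurod6-only libraries (n = 16), a log2 fold change of 1.12 (SE 0.08, adjusted p = 1.94e-11). The value for Tet1 was -0.18 (SE 0.07, adjusted p = 0.0282). It was -0.02 (adjusted p = 0.88) after cells with at least 3000 UMIs were thinned to 3000 and the others left out. The Tet1 call was also lost without any of the WT libraries E12.5 M1, E12.5 F2, E14.5 M2, E16.0 M2 or E17.5 M2. Mbd3 was lower in neurons at 221 ± 28.8 CPM against 296 ± 30.6 CPM (log2 fold change -0.37, SE 0.03, adjusted p = 1.85e-11).

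**Figure D1:**
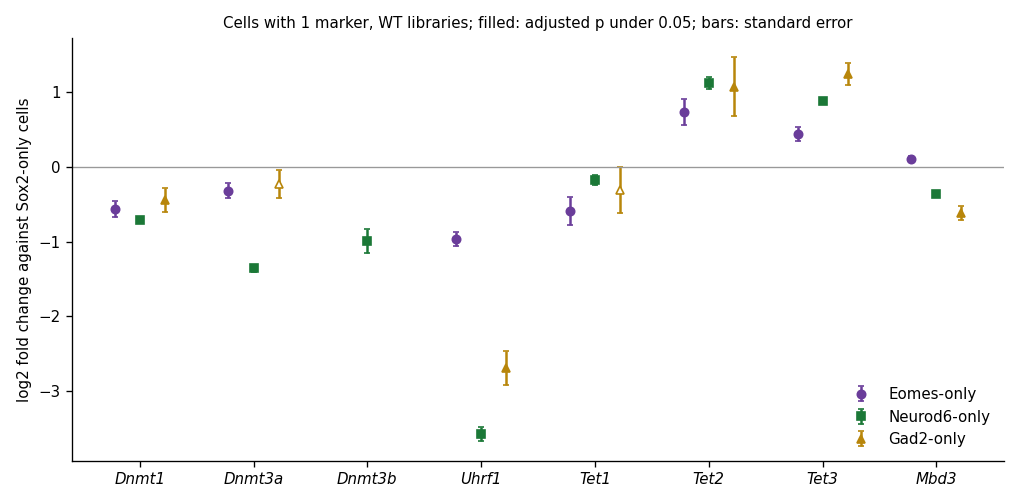
Log2 fold change of each member in Eomes-only, Neurod6-only and Gad2-only cells against Sox2-only cells of the same WT libraries, averaged over stages (y axis), with 1 symbol per class and bars for the standard error. Filled symbols had an adjusted p under 0.05. Uhrf1 reached -3.57 in Neurod6-only cells, while Tet2 and Tet3 were above 0 in each of the 3 classes.

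The mean of Uhrf1 in Eomes-only cells, the intermediate progenitor class, lay between those of Sox2-only and Neurod6-only cells. Of the 8 members 7 could be tested between Eomes-only and Sox2-only cells and each was called, against 46.3% of all genes tested. Uhrf1 averaged 47.0 ± 20.02 CPM in WT Eomes-only libraries, and its log2 fold change was -0.97 (SE 0.09, adjusted p = 3.99e-10). Dnmt1 (-0.56, adjusted p = 8.57e-05), Dnmt3a (-0.32, adjusted p = 0.0128) and Tet1 (-0.59, adjusted p = 0.00897) were lower. Tet2 (0.73, adjusted p = 0.000764), Tet3 (0.44, adjusted p = 0.000309) and Mbd3 (0.10, adjusted p = 0.0473) were higher. In thinned cells the Tet1 call was lost and Dnmt3a gave -0.53 (adjusted p = 3.46e-05). Mbd3 gave 0.17 with 2 UMIs of the marker (adjusted p = 3.62e-05) and 0.20 in thinned cells (adjusted p = 7.41e-05). The Mbd3 call was lost with library totals, without the filter on low counts, with doublets kept, under DESeq2 and without any 1 of the WT libraries other than E14.5 M1, E16.0 F2 and E17.5 F1, with 0.02 (adjusted p = 1) without the filter and 0.06 (adjusted p = 0.261) without E14.5 F1. Dnmt3b had too few UMIs to be tested. Single WT Eomes-only libraries held up to 776 CPM of endothelial and 756 CPM of Cajal-Retzius markers at E17.5 and up to 504 CPM of pericyte markers at E14.5, against at most 7.94, 35.03 and 12.3 CPM in WT Sox2-only libraries of those stages. The part of these cells and of the red cell transcripts was not tested.

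Gad2-only cells were too few at E12.5, and their comparison covers E14.5 to E17.5 with 3, 3 and 4 WT libraries. Of 7 members tested 5 were called, against 63.7% of all genes. Uhrf1 was lower (-2.69, SE 0.22, adjusted p = 1.57e-11), as were Mbd3 (-0.62, SE 0.09, adjusted p = 1.33e-06) and Dnmt1 (-0.44, SE 0.17, adjusted p = 0.0208). Tet3 was higher (1.24, SE 0.15, adjusted p = 4.57e-08), as was Tet2 (1.07, SE 0.39, adjusted p = 0.0183). Dnmt3a and Tet1 gave -0.23 and -0.31 and were not called. The Tet2 call was lost without the E14.5 WT M1 library (0.72, adjusted p = 0.362), while the Dnmt1 call was lost in thinned cells, with library totals, with 2 UMIs of the marker, under DESeq2 and without any of the WT libraries E14.5 M1, M2 or F2, E16.0 M1 or F1, or E17.5 M2, F1 or F2. The value furthest from the full fit among these libraries was -0.31, without E17.5 F2 (adjusted p = 0.0994). Dnmt3a stood at 54.5 ± 24.05 CPM in Gad2-only libraries (n = 10) and at 19.5 ± 3.51 CPM in Neurod6-only libraries (n = 16), which were not tested against each other.

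Within progenitors, Dnmt1 and Uhrf1 were higher in cycling cells in the average over stages, with Uhrf1 lower in cycling cells at E12.5. Sox2-only cells were split by detection of Mki67 or Top2a, transcripts of proliferating cells, into 20895 cycling and 10189 other cells. Cycling here means at least 1 UMI of either transcript. The other cells can include dividing cells in which neither was detected, so they are not a class of non-dividing cells. Between them 4 of 8 members were called in WT embryos, 3 higher and 1 lower in cycling cells, against 46.1% of all genes tested. Dnmt1 was higher by 0.57 on the log2 scale (SE 0.06, adjusted p = 2.24e-10), Uhrf1 by 0.50 (SE 0.05, adjusted p = 2.98e-10) and Mbd3 by 0.11 (SE 0.02, adjusted p = 0.000152). Dnmt3a was lower (-0.19, SE 0.06, adjusted p = 0.0059). Tet1, Tet2 and Tet3 gave -0.01, 0.00 and -0.04 with standard errors of 0.09, 0.13 and 0.06. Dnmt3b gave 0.51 (adjusted p = 0.0852), and it was called without any of the WT M1 libraries of E14.5 (0.60, adjusted p = 0.0439), E16.0 (0.61, adjusted p = 0.036) or E17.5 (0.62, adjusted p = 0.0402). Cycling cells held more UMIs, with library medians of 10658 to 12237 against 7457 to 9008.5 in WT at E12.5. In cells thinned to 3000 UMIs the Dnmt1 value was 0.54, that of Uhrf1 was 0.32 (adjusted p = 0.00069), and the Dnmt3a call was lost (-0.10, adjusted p = 0.50).

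The difference of Uhrf1 between cycling and other progenitors changed sign with stage. At E12.5 the other cells held more, 120, 126, 119 and 115 CPM against 101, 117, 101 and 104 CPM in cycling cells (log2 fold change -0.26, SE 0.04, adjusted p = 1.03e-05). At E17.5 the order was the opposite, with 25.0, 31.5, 42.4 and 58.7 CPM in other cells and 88.1, 108, 91.1 and 95.8 CPM in cycling cells (1.39, SE 0.15, adjusted p = 8.2e-09). In cycling progenitors the Uhrf1 means lay between 95.7 and 107 CPM over the 4 stages, while in the other progenitors they went from 120 ± 4.52 to 39.4 ± 14.8 CPM. The change of the difference was 1.66 (SE 0.16, adjusted p = 1.61e-09), and 17.3% of all genes were called for a change of this kind. Of the other members Mbd3 was also called for it (0.35, SE 0.07, adjusted p = 0.000581). Dnmt1 was higher in cycling cells at each stage, at 0.33, 0.51, 0.67 and 0.78, and its change was not called (0.44, adjusted p = 0.0708). The class of other Sox2-only cells changed in makeup as well: its 8 interneuron markers summed to 4.15 to 17.9 CPM at E12.5 and to 435 to 721 CPM at E17.5, and its 4 oligodendrocyte-lineage markers to 0.317 to 2.07 and 213 to 919 CPM. The part of these cells in the Uhrf1 change was not tested.

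**Figure D2:**
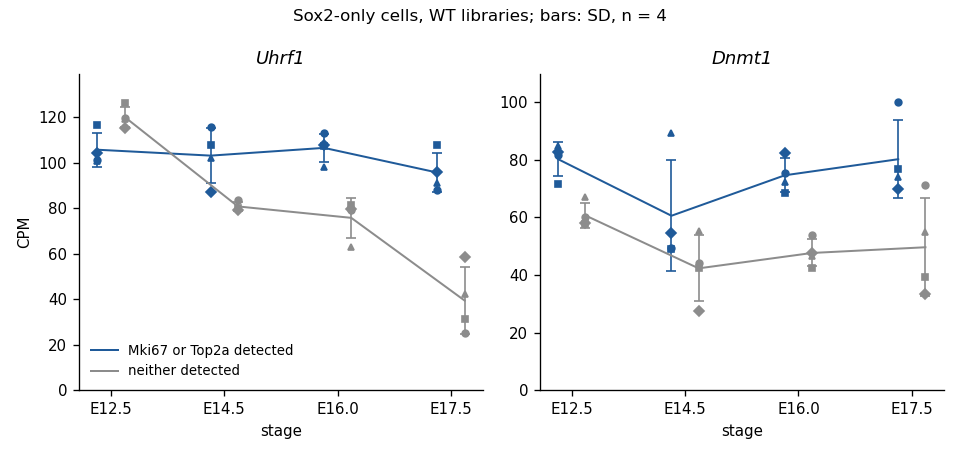
Uhrf1 and Dnmt1 CPM (y axis) by stage in WT Sox2-only cells with Mki67 or Top2a detected and with neither, 1 point per library (circle M1, square M2, triangle F1, diamond F2), bars for the SD and lines joining the means (n = 4). Uhrf1 in cells with neither transcript ran from 120 CPM at E12.5 to 39.4 CPM at E17.5, while in the cycling cells the means stayed between 95.7 and 107 CPM.

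Levels of several members changed from E12.5 to E17.5 within 3 of the 4 classes in WT embryos. Over this span 6 of 8 members were called in Sox2-detected cells, against 59.5% of all genes. In Eomes-detected cells 4 of 8 were called (background 51%) and in Neurod6-detected cells 7 of 8 (background 59.8%), so these shares are near the background. In Gad2-detected cells 0 of 8 were called by edgeR or by DESeq2 (background 12.1%), with 2 at an unadjusted p under 0.05, Dnmt3a (-0.63) and Dnmt3b, on 2 WT libraries at E12.5. Over this span writers and Uhrf1 fell and Tet genes rose wherever a call was made. Sox2-only cells were 10719 of 14389 WT Sox2-detected cells at E12.5 and 882 of 2708 at E17.5. Neurod6-only cells were 1525 of 5424 WT Neurod6-detected cells at E12.5 and 8697 of 11670 at E17.5. The part of these shifts in makeup was not tested.

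Uhrf1 fell in 3 classes. In WT Sox2-detected cells the E12.5 libraries measured 98.5, 112, 99.9 and 102 CPM and the E14.5 libraries 66.0, 72.4, 85.1 and 63.0 CPM. Those of E16.0 measured 88.6, 88.9, 74.6 and 87.5 CPM, followed by 60.9, 75.1, 67.5 and 69.6 CPM for E17.5. All 4 libraries at E12.5 exceeded every later one, and the E16.0 mean of 84.9 CPM lay between those of E12.5 and E14.5, although libraries of E14.5 and E16.0 overlapped. The log2 fold change from E12.5 to E17.5 was -0.76 in Sox2-detected (SE 0.10, adjusted p = 2.89e-07), -0.65 in Eomes-detected (SE 0.17, adjusted p = 0.00215) and -1.67 in Neurod6-detected cells (SE 0.29, adjusted p = 1.39e-05). It was -1.16 in Eomes-only cells (adjusted p = 0.0119), -0.99 in thinned Eomes-detected cells (adjusted p = 0.00014), -0.34 with 2 UMIs of Eomes (adjusted p = 0.0541) and -2.52 in Neurod6-only cells (adjusted p = 1.69e-06). Neurod6-detected cells gave 45.8, 71.1, 56.3 and 48.0 CPM at E12.5 and 13.1, 22.6, 14.3 and 23.8 CPM at E17.5. In that class the radial glia marker sum ran from 1727 to 2138 CPM at E12.5 and from 1025 to 1549 CPM at E17.5, and its part in the fall was not tested.

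The de novo enzymes were lower at the last stage in several classes. In Sox2-detected cells Dnmt3b measured 7.38, 5.99, 8.11 and 6.75 CPM at E12.5 and 2.49, 3.26, 4.45 and 5.94 CPM at E17.5 (log2 fold change -0.98, SE 0.22, adjusted p = 0.000399), on 12 to 28 UMIs per library at E17.5. It also fell in Neurod6-detected cells (-0.71, SE 0.19, adjusted p = 0.00196), although there the value was 0.05 over cells with 1 marker. Dnmt3a fell by 0.51 on the log2 scale in Eomes-detected cells (SE 0.13, adjusted p = 0.00133) and by 0.65 in Neurod6-detected cells (SE 0.15, adjusted p = 0.000516). In cells with Neurod6 as the 1 marker it gave -0.30 (adjusted p = 0.14). In Sox2-detected cells it gave -0.29 (SE 0.10, adjusted p = 0.0155), a call lost with library totals (-0.12, adjusted p = 0.40), and over Sox2-only cells the value was 0.01. TMM scaling and library totals differ by -0.166 on the log2 scale in this contrast.

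The Tet genes moved the other way. Tet3 in WT Sox2-detected cells measured 28.0, 25.1, 27.7 and 25.5 CPM at E12.5 and 66.9, 46.8, 39.1 and 52.4 CPM at E17.5, with no overlap (log2 fold change 0.78, SE 0.14, adjusted p = 2.41e-05). In Neurod6-detected cells it measured 37.7, 35.8, 38.6 and 41.8 CPM and then 82.6, 56.8, 47.8 and 62.8 CPM (0.61, adjusted p = 0.000129), and in Eomes-detected cells the value was 0.43 (SE 0.13, adjusted p = 0.00551). Tet1 rose in Eomes-detected (1.07, SE 0.26, adjusted p = 0.000839), Neurod6-detected (0.95, adjusted p = 0.000381) and Sox2-detected cells (0.59, SE 0.23, adjusted p = 0.0247). Tet2 rose in Neurod6-detected (0.68, adjusted p = 0.00476) and Sox2-detected cells (0.54, SE 0.19, adjusted p = 0.0155).

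Some of these rises rested on the E17.5 WT M1 library, 1 of the 3 that stood apart, which was the highest of its group for Tet1, Tet2 and Tet3 in Sox2- and Neurod6-detected cells. Without the 3 libraries, Tet3 kept a call in Sox2-detected (0.64, adjusted p = 1.9e-05), Eomes-detected (0.28, adjusted p = 0.0358) and Neurod6-detected cells (0.44, adjusted p = 0.00125). Without the E17.5 WT M1 library alone, Tet3 in Eomes-detected cells was not called (0.28, adjusted p = 0.0633). Tet1 in Sox2-detected cells was 0.23 without that library (adjusted p = 0.385) and 0.46 without E12.5 WT M2 (adjusted p = 0.0934). Tet2 there was 0.32 without E17.5 WT M1 (adjusted p = 0.163). In Neurod6-detected cells Tet1 (0.61, adjusted p = 0.00265) and Tet2 (0.50, adjusted p = 0.0232) were called without the 3 libraries.

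Dnmt1 was not called from E12.5 to E17.5 in any class, and Mbd3 was called in Neurod6-detected cells. Dnmt1 in WT Sox2-detected cells measured 74.8, 68.2, 80.5 and 76.7 CPM at E12.5 and 94.0, 54.7, 57.9 and 46.7 CPM at E17.5 (-0.42, SE 0.21, adjusted p = 0.088). The E17.5 WT M1 library lay above all others of both stages, and without it the value was -0.66 (adjusted p = 0.0095). Without E14.5 WT F1 the adjusted p of Dnmt1 was 0.036, and it was also called there in thinned cells and without the filter on low counts. In Eomes-detected cells Dnmt1 was called without E17.5 WT M1 (-0.63, adjusted p = 0.0429) and Dnmt3b without E17.5 WT F2 (-0.55, adjusted p = 0.0407). Mbd3 in Neurod6-detected cells measured 281, 302, 288 and 290 CPM at E12.5 and 176, 242, 204 and 290 CPM at E17.5 (-0.43, SE 0.14, adjusted p = 0.00828), and without E17.5 WT M1 this was -0.31 (adjusted p = 0.0514). Mbd3 in Sox2-detected cells gave -0.21 and was not called, but it was called without E17.5 WT F2 (-0.30, adjusted p = 0.0208), in Sox2-only cells (-0.29, adjusted p = 0.0235), in thinned cells (-0.32, adjusted p = 0.0291) and without the E14.5 F1 pair (-0.26, adjusted p = 0.0378).

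Other calls from E12.5 to E17.5 were lost under other choices of cells, which also changed how many cells were summed. With 2 UMIs of the marker required, calls were lost for Dnmt3a, Tet1 and Tet2 in Sox2-detected, Dnmt3a and Uhrf1 in Eomes-detected, and Dnmt3b and Tet2 in Neurod6-detected cells. Cells with 1 marker lost them for Dnmt3a and Tet2 (Sox2), Dnmt3a, Tet1 and Tet3 (Eomes), and Dnmt3a and Dnmt3b (Neurod6). Over all genes 6830, 1600 and 7053 were called in these fits, against 8236, 6705 and 8752 in the detected classes. Tet1 in Eomes-only cells gave 1.36 (adjusted p = 0.0718), a larger value than in Eomes-detected cells. After thinning, Dnmt3a in Sox2- and Eomes-detected, Tet3 in Eomes-detected and Dnmt3b in Neurod6-detected cells were not called.

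**Figure D3:**
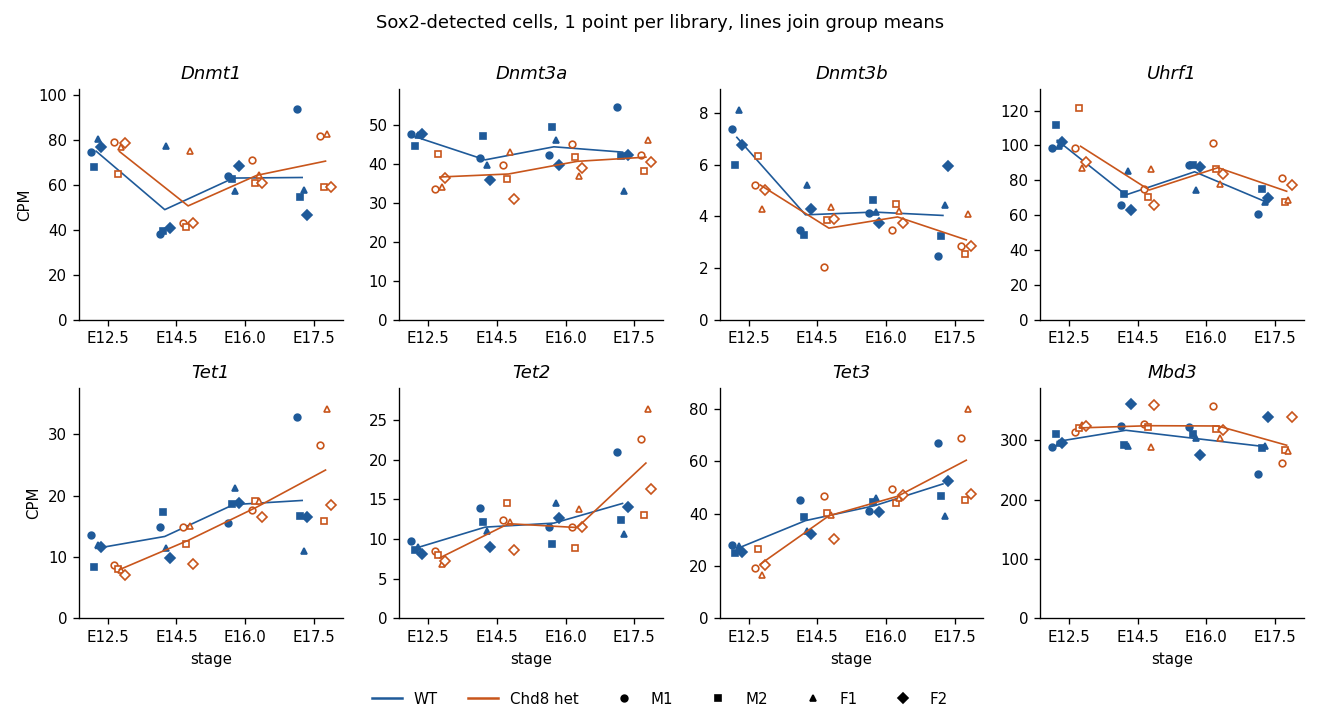
CPM of the 8 members (y axis of each panel) by stage in Sox2-detected cells of WT and Chd8 het libraries, 1 point per library with symbols for M1, M2, F1 and F2 and lines joining group means (n = 4). Uhrf1 and Dnmt3b were highest at E12.5, Tet3 rose from 26.6 to 51.3 CPM in WT, and the E14.5 F1 libraries stood at 77.3 (WT) and 75.2 CPM (Chd8 het) for Dnmt1.

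The first step, from E12.5 to E14.5, held most of the calls between neighbouring stages. In Sox2-detected cells Dnmt1 (-0.74, adjusted p = 0.00547), Dnmt3a (-0.32, adjusted p = 0.0103), Dnmt3b (-0.93, adjusted p = 0.000461) and Uhrf1 (-0.65, adjusted p = 7.18e-06) fell and Tet3 rose (0.36, adjusted p = 0.0427), 5 of 8 members against a background of 38.3%. In Neurod6-detected cells Dnmt1, Dnmt3a, Dnmt3b and Uhrf1 fell and Tet3 rose (0.39, adjusted p = 0.0144), with Uhrf1 at -1.52 (adjusted p = 0.00011), against 37.8% of all genes. Eomes-detected cells had 4 calls, all downwards, among them Uhrf1 (-1.01), against 30.4% of all genes. Tet3 had an unadjusted p under 0.05 there and was called upwards without stage E17.5 (0.26, adjusted p = 0.0242). Gad2-detected cells had 2, Dnmt3b and Uhrf1, against 15.3%. Dnmt1 had an unadjusted p under 0.05 there and was called downwards without stage E17.5 (-0.91, adjusted p = 0.0305). Dnmt3b had 6 and 7 UMIs in the 2 WT libraries of E12.5 and 0 to 3 in those of E14.5, and did not pass the filter on low counts in the fit without stage E12.5, so its call is not read. Uhrf1 gave -1.65 (adjusted p = 0.00907), a call lost without the E12.5 WT F1 library (adjusted p = 0.215), which left 1 WT library at that stage, assumed to vary like the other groups.

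Many of these calls at the first step were lost over cells with exactly 1 marker. Over all genes 3430 were called in Sox2-only, 3349 in Neurod6-only and 521 in Eomes-only cells, against 5294, 5527 and 4001 in the detected classes. In Sox2-only cells Dnmt1 (-0.59, adjusted p = 0.00774), Dnmt3b (-0.65, adjusted p = 0.0223) and Uhrf1 (-0.29, adjusted p = 0.0334) were called, while Dnmt3a gave -0.07 (adjusted p = 0.69) and Tet3 0.18 (adjusted p = 0.32). In Neurod6-only cells Dnmt3a (-0.51, adjusted p = 0.0263) and Uhrf1 (-2.14, adjusted p = 4.32e-05) were called, whereas Dnmt1 gave -0.05 (adjusted p = 0.91), Dnmt3b 0.11 (adjusted p = 0.91) and Tet3 0.29 (adjusted p = 0.14). In Eomes-only cells no member was called by edgeR, with Uhrf1 at -0.82 (adjusted p = 0.0661, unadjusted p = 0.00521), the 1 member under an unadjusted p of 0.05, and Dnmt3b untested. Dnmt3a in Sox2-detected cells was also not called with library totals (-0.19, adjusted p = 0.21), with 2 UMIs of the marker or in thinned cells. Thinned cells also lost the calls there of Dnmt3b (-0.49, adjusted p = 0.158) and Tet3 (0.39, adjusted p = 0.0538), and the Tet3 call was lost with 2 UMIs of the marker, without the filter and without stage E16.0.

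Single libraries decided further calls at that step. Tet3 in Sox2-detected cells was not called without any of the 4 WT libraries of E12.5 or without E14.5 WT M1 (0.28, adjusted p = 0.157) or M2. Dnmt1 in Eomes-detected cells gave -1.18 without E14.5 WT F1 (adjusted p = 0.000125), against -0.77 with all libraries. Its call was lost there without E14.5 WT M1, M2 (-0.62, adjusted p = 0.0815) or F2, and in Neurod6-detected cells without these or E12.5 WT F1. Dnmt3b in Eomes-detected cells was not called without E12.5 WT F1 or E14.5 WT M2 or F2 (-0.53, adjusted p = 0.0684). It was also not called with 2 UMIs of the marker, without the filter on low counts or in thinned cells.

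At the later steps no member was called by edgeR or by DESeq2 in Sox2-detected cells (backgrounds 9.35% and 22.1%) or Neurod6-detected cells (backgrounds 11.1% and 5.75%). At an unadjusted p under 0.05, Uhrf1 and Tet3 passed from E16.0 to E17.5 in Sox2-detected cells and Dnmt1, Tet1 and Tet3 from E14.5 to E16.0 in Neurod6-detected cells. In Eomes-detected cells neither test called a member at these steps (backgrounds 6.53% and 8%), and Uhrf1 passed unadjusted from E14.5 to E16.0. From E16.0 to E17.5 no member was called by either test, or passed unadjusted, in Gad2-detected cells (background 0.00998%). From E14.5 to E16.0 in Gad2-detected cells Dnmt1 passed unadjusted, and Uhrf1 rose from 14.3, 28.8, 21.8 and 19.3 CPM at E14.5 to 40.9, 82.3, 45.8 and 87.1 CPM at E16.0, without overlap (1.5, SE 0.34, adjusted p = 0.0103), on 5 to 63 UMIs per library and against 7.64% of all genes. The value was 1.27 without E14.5 WT M1 (adjusted p = 0.0809) and 1.92 in Gad2-only cells (adjusted p = 0.45), neither called. Uhrf1 fell from E16.0 to E17.5 in Sox2-only cells (-0.38, adjusted p = 0.0159), and Tet1 rose from E14.5 to E16.0 in Neurod6-only cells (0.59, adjusted p = 0.0487). Over all genes 2821 and 2722 were called there, against 3052 and 1626 in the detected classes. The E14.5 step of Dnmt1 depends on the F1 pair that stood apart. Dnmt1 at E14.5 measured 38.3, 39.6 and 40.9 CPM in 3 WT libraries of Sox2-detected cells and 77.3 CPM in F1, and 41.2 to 43.2 CPM in 3 Chd8 het libraries and 75.2 CPM in F1. Without the pair, Dnmt1 fell by 1.07 from E12.5 to E14.5 (adjusted p = 1.47e-06, background 41.6%) and rose by 0.57 from E14.5 to E16.0 (adjusted p = 0.00934, background 14.9%).

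**Figure D4:**
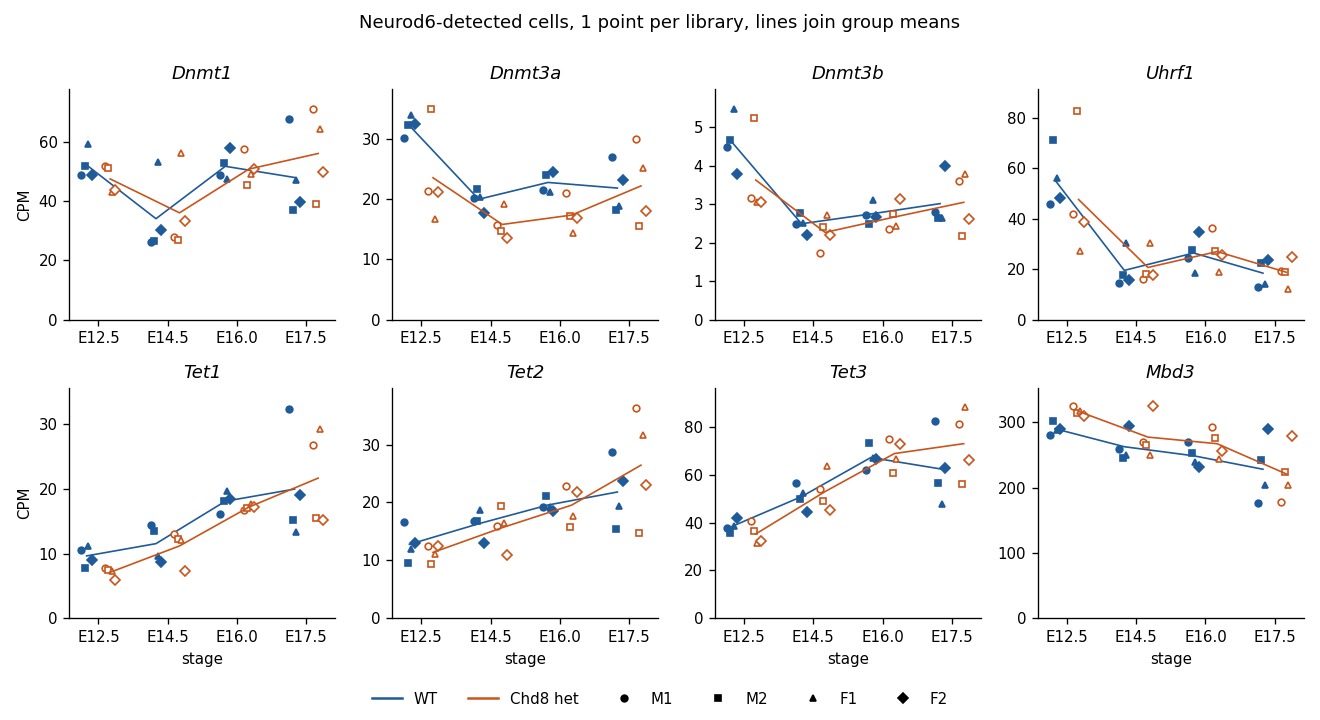
CPM of the 8 members (y axis of each panel) by stage in Neurod6-detected cells, drawn as in the plot for Sox2-detected cells, with 1 point per library and lines joining group means (n = 4). WT Uhrf1 ran from 55.3 CPM at E12.5 to 18.5 CPM at E17.5, and Tet3 from 38.5 to 62.5 CPM.

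Loss of 1 Chd8 copy was compared with WT in each class, which addresses whether these genes depend on Chd8 dosage. Without the pairs in the model, no member was called in any class by edgeR, averaged over the 4 stages or at a single stage. With the matched pair as a replicate block, Dnmt3a was called in Eomes- and Neurod6-detected cells over the stages and at E12.5 in Sox2-detected cells, and Mbd3 at E12.5 in Sox2- and Eomes-detected cells, with the values given below. Over all genes the averaged contrast called 0.499% in Sox2-detected, 0.274% in Eomes-detected, 0.219% in Neurod6-detected and 0% in Gad2-detected cells. At E12.5 the shares were 1.13%, 0.486%, 0.00684% and 0%. At E16.0 they were 0.0217%, 0.0076%, 0% and 0%, and at E14.5 and E17.5 each was 0%. At an unadjusted p under 0.05, Dnmt3a passed in the averaged contrast of each class, Dnmt3b also passed in Sox2-detected cells, and the other 6 members passed in none. At single stages the members that passed unadjusted were Dnmt3a at E12.5 in Sox2-, Eomes- and Neurod6-detected, at E14.5 in Neurod6- and Gad2-detected, and at E16.0 in Eomes- and Neurod6-detected cells, Mbd3 at E12.5 and Tet3 at E17.5 in Eomes-detected cells, and Tet2 at E17.5 in Gad2-detected cells. DESeq2 called Dnmt3a in 2 of these contrasts, given below with their values. A test for unequal effects over the 4 stages passed for no member in any class, also unadjusted.

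Dnmt3a was lower in the Chd8 het library in 13 of 16 pairs in Sox2-detected, Eomes-detected and Neurod6-detected cells and in 11 of 13 pairs in Gad2-detected cells. Mbd3 was higher in 12 of 16 pairs in each of the first 3 classes. Tet1 was lower in 11, 11 and 12 of 16 pairs in these classes, Tet2 in 10, 12 and 11, and Dnmt3b in 11, 10 and 9. Dnmt1 was lower in 6, 7 and 5 pairs, Uhrf1 in 6, 5 and 7, and Tet3 in 8, 7 and 8. The share of all genes with such pair counts is not given. At E12.5 in Sox2-detected cells Dnmt3a measured 47.8, 44.5, 47.5 and 47.8 CPM in WT and 33.6, 42.7, 34.1 and 36.3 CPM in Chd8 het, with no overlap. Of all genes tested 10.7% had no overlap of the genotypes in that class and stage, in either direction. At E17.5 the Dnmt3a values were 54.7, 42.2, 33.1 and 42.2 CPM against 42.3, 38.2, 46.1 and 40.4 CPM, which overlapped. In Eomes-detected cells at E16.0 Dnmt3a measured 28.2, 33.2, 26.7 and 28.2 CPM in WT and 26.0, 23.9, 21.2 and 25.3 CPM in Chd8 het, and in Neurod6-detected cells 21.5, 23.98, 21.1 and 24.5 against 21.0, 17.2, 14.4 and 16.9 CPM. Both sets were without overlap, the second by a narrow margin, as were 3.05% and 2.15% of all genes in these classes at E16.0.

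The averaged log2 fold change of Dnmt3a was -0.15 in Sox2-detected (SE 0.05, adjusted p = 0.27), -0.26 in Eomes-detected (SE 0.06, adjusted p = 0.0834), -0.29 in Neurod6-detected (SE 0.08, adjusted p = 0.159) and -0.38 in Gad2-detected cells (SE 0.13, adjusted p = 1). The 4 classes share cells and libraries and are not independent of each other. In the fit with the replicate block, Dnmt3a was called in Eomes-detected (-0.26, adjusted p = 0.0284, background 1.32%) and Neurod6-detected cells (-0.30, adjusted p = 0.0226, background 0.882%), and at E12.5 in Sox2-detected cells (-0.27, adjusted p = 0.0429, background 15.6%). It was not called in Sox2-detected cells over the stages (adjusted p = 0.13). DESeq2 called it in Eomes-detected cells (adjusted p = 0.0362, background 0.599%) and at E12.5 in Sox2-detected cells (-0.25, adjusted p = 0.0413). The DESeq2 share of all genes is not given for the latter, where edgeR without the block called 1.13%.

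Single libraries also decided the Dnmt3a call. The E12.5 Chd8 het M2 library was close to WT, at 34.6 CPM in Eomes-detected cells beside 23.0, 18.6 and 22.7 CPM in the other Chd8 het libraries. Without it the averaged value had an adjusted p of 0.0085 in Eomes-detected and 0.013 in Neurod6-detected cells. M2 was also the deep library of its group, so these fits kept only the shallow E12.5 Chd8 het libraries. Without the 3 E17.5 libraries that stood apart, Dnmt3a was called in Neurod6-detected cells (-0.35, adjusted p = 0.0187, background 0.248%). Without E14.5 Chd8 het F1 the adjusted p in Eomes-detected cells was 0.031, and without both E14.5 F1 libraries it was 0.0413. The share of all genes called is not given for these fits or for those without E12.5 Chd8 het M2. Over cells with 1 marker, the values were -0.06 for Sox2, -0.16 for Eomes and -0.29 for Neurod6 (adjusted p = 0.34 for Neurod6), and in thinned cells they were -0.12 in Sox2-detected (adjusted p = 0.87), -0.28 in Eomes-detected (adjusted p = 0.53) and -0.32 in Neurod6-detected cells (adjusted p = 0.30).

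Depth and radial glia transcripts moved with genotype at E12.5. The median UMI count of Sox2-detected cells ran from 4894.5 to 11522 over the Chd8 het libraries and from 9407 to 11271 over the WT libraries. Over all cells the deep Chd8 het library was M2, with a median of 10727 UMIs against 6158, 4166 and 6131 in M1, F1 and F2, so the 3 E12.5 Chd8 het libraries with low Dnmt3a were the shallow ones. The radial glia marker sum in Neurod6-detected cells ran from 1034 to 2326 CPM in Chd8 het and from 1727 to 2138 CPM in WT, and in Eomes-detected cells from 1225 to 2402 against 2067 to 2294 CPM. With each cell thinned to 3000 UMIs the averaged Dnmt3a difference was about as large as without thinning and was not called. That average takes in the later stages as well, so it cannot show the part of depth at E12.5. The thinned difference at E12.5 alone is not given here. Over cells with 1 marker, Dnmt3a at E12.5 gave -0.31 for Sox2 (adjusted p = 0.128), -0.62 for Eomes (adjusted p = 0.422) and -0.07 for Neurod6 (adjusted p = 0.927). The part of the radial glia transcripts was not tested.

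**Figure D5:**
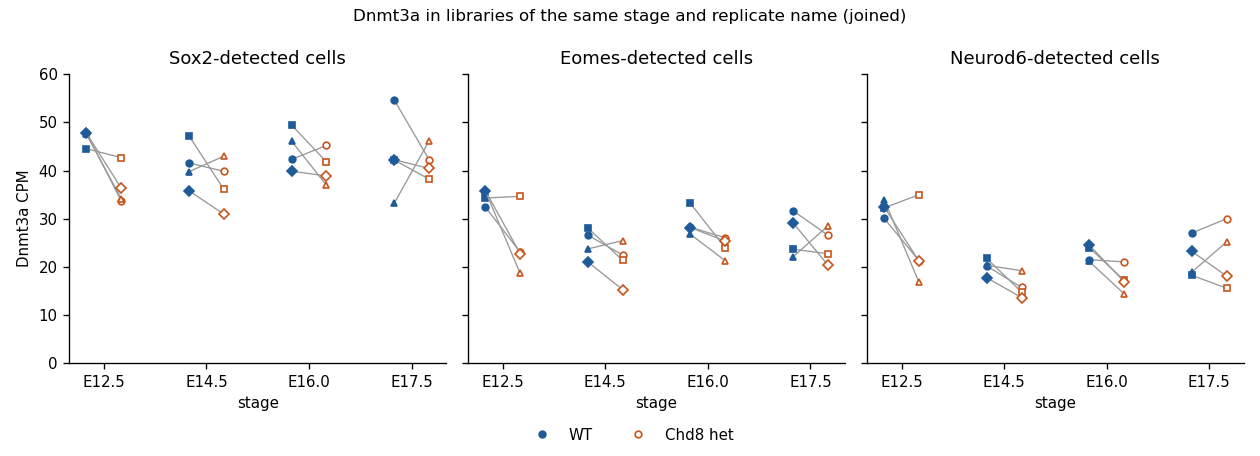
Dnmt3a CPM (y axis) by stage in Sox2-, Eomes- and Neurod6-detected cells of WT (filled) and Chd8 het (open) libraries, with a line joining the 2 libraries of the same stage and replicate name. In each of the 3 classes 13 of 16 lines go down from WT to Chd8 het, and the E12.5 M2 pair stays nearly level.

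Mbd3 at E12.5 was higher in Chd8 het without overlap in 3 classes, which share cells, and 10.7%, 7.12% and 6.38% of all genes had no overlap in Sox2-, Eomes- and Neurod6-detected cells at that stage. In Sox2-detected cells it measured 290, 311, 296 and 296 CPM in WT and 314, 320, 325 and 325 CPM in Chd8 het, a log2 difference of 0.20 (adjusted p = 0.32). In Eomes-detected cells the values were 305, 329, 300 and 311 against 354, 331, 365 and 341 CPM (0.26, adjusted p = 0.306), and in Neurod6-detected cells 281, 302, 288 and 290 against 326, 314, 317 and 310 CPM (0.23, adjusted p = 0.522). With the replicate block the E12.5 difference was called in Sox2-detected (adjusted p = 0.0415, background 15.6%) and Eomes-detected cells (adjusted p = 0.0449, background 6.55%) and not in Neurod6-detected cells (adjusted p = 0.0542). Averaged over stages Mbd3 gave 0.08, 0.08 and 0.07 in these classes and was not called.

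Other members whose genotypes did not overlap at a stage were Uhrf1 and Tet3. Uhrf1 in Eomes-detected cells at E17.5 averaged 45.3 ± 1.39 CPM in WT and measured 60.8, 46.9, 47.8 and 57.3 CPM in Chd8 het, where 2.09% of all genes had no overlap. Tet3 in Eomes-detected cells at E12.5 measured 36.0, 37.6, 39.1 and 40.2 CPM in WT and 34.7, 35.1, 25.6 and 28.2 CPM in Chd8 het. Of all genes tested 7.12% had no overlap in that class and stage. In Gad2-detected cells at E14.5 Tet3 measured 62.0, 61.5, 74.1 and 69.1 against 58.4, 53.1, 51.4 and 55.1 CPM, with 1.58% of all genes without overlap. None of these was called. At E12.5 the Gad2-detected class held 2 libraries per genotype, too few to read.

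Other genes of DNA methylation were described by lists. For cofactors of the writers, such as Hells, Pcna and Ahcy, 8 of 11 tested were lower and 2 higher in Neurod6-only than in Sox2-only WT cells (median log2 fold change -0.71, against 0.02 over all genes tested). In this contrast 86.5% of all genes were called, which is the background for this list and for those that follow. Hells, a helicase of the SNF2 family needed for methylation of repeats, gave -3.63 (adjusted p = 1.7e-21), and Pcna, the replication clamp, -2.22 (adjusted p = 2.9e-23). All 20 genes of the replication list were lower (median -2.80), with Mcm3 at -4.30, Cdc6 at -4.05 and Cdt1 at -3.62. Uhrf1 at -3.57 stood within the range of these genes. Of 16 genes tested from the base removal list, which also holds deaminases and repair factors, 9 were lower and 3 higher. The largest changes were those of the deaminases Apobec1 (-4.55) and Apobec3 (-2.68) and of Ung (-3.38).

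The listed CpG readers went the other way. That list also holds Cxxc1, Kdm2a, Kdm2b, Mbd5 and Mbd6, which are not known as readers of methylated CpG. Of 12 tested, 11 were higher and 1 lower in Neurod6-only cells (median 0.59), with Zfp57 at 2.46 and Zbtb38 at 2.26. Among 13 NuRD genes 5 were higher and 6 lower, with Chd5 at 2.77 and Chd3 at 2.26, both chromodomain ATPases, against Rbbp7, a histone chaperone, at -1.64. Of 10 TET cofactors and partners 2 were higher and 5 lower, led by Idh2 (-1.06), Idh1 (0.91), the isocitrate dehydrogenases that supply 2-oxoglutarate, and Ogt (0.85), which binds Tet proteins.

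From E12.5 to E17.5, where 59.5% and 59.8% of all genes were called, replication genes fell in 18 of 20 and 20 of 20 cases in Sox2-detected and Neurod6-detected WT cells (medians -1.0 and -1.46, against 0.05 and 0.04 over all genes). Readers rose in 7 and 8 of 12 (medians 0.44 and 0.61), with Zbtb38 at 2.18 and 1.84 and Zbtb4 at 1.72 and 2.18. Writer cofactors fell in 4 and 5 of 11, and rose in 0 and 1. The shares of readers and writer cofactors called are near or below the background. Chd5 rose by 3.40 and 3.29, and Ogt by 1.34 and 1.76. Between cycling and other Sox2-only cells 5 of 10 writer cofactors were higher and 0 lower, near the 46.1% of all genes called, among them Ezh2 (0.82), a histone methyltransferase. Of the replication list 10 of 20 were higher and 6 lower there, with Tyms (1.23), Rrm1 (1.2) and Rrm2 (1.12) highest. Between genotypes edgeR called no listed gene in the contrast averaged over stages in any class. At an unadjusted p under 0.05 in Sox2-detected cells 1 of 11 writer cofactors, 2 of 16 genes of base removal, 1 of 10 TET cofactors and partners, 3 of 12 readers, 1 of 13 NuRD genes and 2 of 20 replication genes passed, where 8.80% of all genes did, and the list medians in Sox2-detected cells lay between -0.02 and 0.06.

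The genes most like each member were ranked over the 32 means of class, stage and genotype among 9973 genes, by Pearson's r of log2(CPM + 1), as a description, since the means share libraries, depth and cells. Uhrf1 was closest to Lig1, the replicative DNA ligase (r = 0.99), Rad51ap1 (0.98) and Usp1 (0.98). Tet1 was closest to Bptf (0.98), Ash1l (0.97) and Cspp1 (0.96), and Tet3 to Zmynd8 (0.98), Spag9 (0.97) and Tcaf1 (0.97). Tet2 was closest to Lhfpl4 (0.95), Fam227a (0.95) and Bcor (0.94), and Mbd3 to Cep76 (0.94), Polr2c (0.92) and Pdzd11 (0.92). For Dnmt1 the list was Nup155 (0.91), Cstf2 (0.90) and Usp37 (0.89), for Dnmt3a Cdc7 (0.87), Bak1 (0.84) and Sox2 (0.84), and for Dnmt3b Isg20l2 (0.85), Esf1 (0.84) and Spcs3 (0.84). Detection of Sox2 defines a class, so its pattern over the means is set in part by that rule. Among the members themselves Tet2 and Tet3 were most alike (0.91), followed by Tet1 and Tet3 (0.78), while Uhrf1 gave 0.73 with both Dnmt1 and Dnmt3a.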

How the data were processed

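Droplet-based 3′ RNA counts of single cells came from 32 libraries, 4 per stage and genotype. The deposited values are raw UMI counts per gene and cell, aligned and counted by the authors with STAR 2.7.9a, STARsolo and Cell Ranger on build mm10, per the submitters' processing notes. The role of each tool is not given in the sources used here, nor is the gene annotation. A barcode was kept as a cell from 1000 UMIs and 500 genes upwards, provided that no more than 10% of its UMIs were mitochondrial. Doublets were then removed per library by similarity to simulated doublets (2000 variable genes, 30 principal components, 20 neighbours, 0.8% expected per 1000 cells), which marked 1.96% to 5.91% of the cells of a library. Counts were summed per library over the cells of a class, with a minimum of 20 cells, which left 4 E12.5 libraries (WT M2, WT F2, Chd8 het M1 and Chd8 het F2) out of the Gad2-detected class. These sums held 3500100 to 49953465 UMIs per library in Sox2-detected and 73204 to 2290872 in Gad2-detected cells, which limits what the latter can show.

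Each class was fitted in edgeR 4.0.16 (R 4.3.3) by the quasi-likelihood method with TMM scaling and filterByExpr, with all 32 libraries in 1 fit of 8 group means, which share 1 estimate of the spread. Classes of cells, and cycling against other cells, were compared in the 16 WT libraries with the library as a block and averaged over stages. P-values were adjusted over all tested genes. The fits were tested on simulated counts. Each library is from 1 embryo, so p-values measure the spread between embryos and their libraries. Alternatives were library totals, no filter on low counts, 2 UMIs of the marker, cells with 1 marker, doublets kept, cells thinned to 3000 UMIs, DESeq2 1.42.0, a replicate block, and leaving out each library, a stage, or the libraries that stood apart (the last chosen after seeing the data). Thinning left out cells with fewer than 3000 UMIs.

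The labels state that embryos were litter- and sex-matched pairs but not which library pairs with which. Libraries of the same stage and replicate name were taken as pairs, since the leading part of the submitters' library code was shared in 16 of 16 pairs. Deviations from the group means correlated above 0.1 in 16 of 16 pairs in Sox2-detected, 15 of 16 in Eomes-detected, 13 of 16 in Neurod6-detected and 9 of 13 in Gad2-detected cells.

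The members and the gene lists were chosen with earlier results of these data known. All 8 members are named. Of the lists (writer cofactors, base removal, TET cofactors and partners, CpG readers, NuRD genes, replication), the 3 genes with the largest called change in a contrast could be named. The 3 genes most like a member are those with the highest Pearson correlation over 32 means. Promoters and gene positions are from RefSeq and from the GENCODE annotation of GRCm38.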

Additional observations from a re-analysis of the deposited data

Results flagged for a closer look

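In 19 of 240 groups of 4 libraries 1 library lay far from the others, where chance gives about 1 in 20. Of these, 9 concern the F1 pair of E14.5. In CPM, Dnmt1 was high in Sox2-detected cells of WT F1 (77.35, others 38.33 to 40.9) and Chd8 het F1 (75.18, others 41.23 to 43.21), in Eomes-detected cells of WT F1 (62.9, others 25.27 to 29.23) and Chd8 het F1 (62.06, others 29.79 to 31.01), in Neurod6-detected cells of WT F1 (53.22, others 26.3 to 30.24) and in Gad2-detected cells of Chd8 het F1 (78.4, others 41.11 to 43.78). Uhrf1 was high in Chd8 het F1 in Neurod6-detected (30.54, others 16.32 to 18.08) and Gad2-detected cells (63.7, others 15.31 to 18.84), and Dnmt3b in its Eomes-detected cells (4.478, others 2.368 to 2.717). In the E14.5 Chd8 het F2 library Tet1 was low in Eomes-detected (6.991, others 13.28 to 14.56) and Neurod6-detected cells (7.238, others 12.16 to 13).

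At E12.5 the Chd8 het M2 library was low for Dnmt1 in Sox2-detected cells (65.11, others 76.82 to 79.22) and high for Dnmt3b in Neurod6-detected cells (5.246, others 3.063 to 3.156), and WT M2 was low for Dnmt3a in Sox2-detected cells (44.53, others 47.53 to 47.83). At E16.0 WT F1 was low for Uhrf1 in Sox2-detected cells (74.62, others 87.49 to 88.93) and Chd8 het M1 high for Uhrf1 in Gad2-detected cells (81.82, others 58.16 to 59.41). At E17.5 WT F2 was high for Dnmt3b in Neurod6-detected cells (3.998, others 2.64 to 2.804), and WT M1 was high in Gad2-detected cells for Tet1 (38.78, others 14.4 to 17.32) and Tet3 (96.03, others 55.82 to 59.8).

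Differences between classes that changed from E12.5 to E17.5, each tested as the change itself, were those of Neurod6-only against Sox2-only cells for Dnmt1 (0.7449), Dnmt3b (1.69) and Uhrf1 (-1.753), and those of cycling against other Sox2-only cells for Uhrf1 (1.655) and Mbd3 (0.3482), all as log2 fold changes.

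The 10851 cells with none of the 4 markers enter no comparison. Over the 32 libraries their mean CPM, with the range, was 53.06 for Dnmt1 (33.44 to 95.78), 49.5 for Dnmt3a (27.88 to 93.06), 5.662 for Dnmt3b (1.155 to 11.73) and 63.91 for Uhrf1 (18.07 to 112). It was 14.32 for Tet1 (2.769 to 38.85), 14.72 for Tet2 (5.622 to 40.11), 41.55 for Tet3 (14.95 to 72.28) and 233.9 for Mbd3 (132.6 to 307.3).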

How the results depend on the processing

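Each choice was changed alone, and counts of members called kept within 1.5 times except as follows. Alternatives for neighbouring stages were added after seeing the data. Between genotypes, the count of 0 members averaged over stages became 1, Dnmt3a each time, in Eomes-detected cells with 2 UMIs of the marker, under DESeq2, with the replicate block and without the E14.5 F1 pair, and in Neurod6-detected cells with the replicate block, without stage E17.5 (-0.36, adjusted p = 0.0345) and without the 3 E17.5 libraries that stood apart. The 32 tests of member and stage gave 0 calls, and 1 under DESeq2 and 2 with the replicate block in Sox2-detected cells and 1 with the replicate block in Eomes-detected cells. Fits without 1 library gave 0 to 1 in the averaged contrast of Eomes- and Neurod6-detected cells and 0 to 1 of the stage tests in Sox2-, Eomes- and Neurod6-detected cells. The replicate block changed no other call between genotypes. From E12.5 to E17.5, the 6 calls in Sox2-detected cells became 3 with 2 UMIs of the marker. The 4 in Eomes-detected cells became 2 with 2 UMIs, 2 in thinned cells and 1 with 1 marker only. The 0 in Gad2-detected cells became 1 without the E14.5 F1 pair, Dnmt3b, whose 2 WT libraries of E12.5 held 6 and 7 UMIs. From E12.5 to E14.5, the 5 calls in Sox2-detected cells became 3 with 2 UMIs, 2 in thinned cells and 3 with 1 marker only, the 5 in Neurod6-detected cells became 2 under each of these, and the 4 in Eomes-detected cells became 0 with 1 marker only. The 2 in Gad2-detected cells became 1 in thinned cells. Fits without 1 library gave 2 to 4 in Eomes-detected and 0 to 3 in Gad2-detected cells. From E14.5 to E16.0, the 0 calls in Sox2-detected cells became 1 without the E14.5 F1 pair. The 0 in Neurod6-detected cells became 1 with 1 marker only, without stage E17.5, without the 3 E17.5 libraries and without the F1 pair, and the 1 in Gad2-detected cells became 0 with 1 marker only and 2 without that pair. The 0 in Eomes-detected cells became 1 with library totals and with 2 UMIs and 2 without the pair (Dnmt1 and Uhrf1), and ran from 0 to 2 without 1 library. From E16.0 to E17.5, the 0 in Sox2-detected cells became 1 with library totals, 2 UMIs, thinned cells, 1 marker only and without the F1 pair. Fits without 1 library gave 0 to 1 for the other later steps named here. The 5 calls of Gad2-only cells became 3 in thinned cells and ran from 3 to 5 without 1 library. Of the single members, 389 of the alternatives between genotypes other than left-out libraries kept direction and call and 44 changed sign, as did 390 and 11 between stages and 157 and 6 between classes. Calls were gained in 7 between genotypes, lost in 44 and gained in 10 between stages, and lost in 13 and gained in 1 between classes. The cause was not tested.

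Values of the other sign, as log2 fold changes between genotypes averaged over stages, were as follows. In Sox2-detected cells Tet1 gave 0.044 in thinned cells and 0.057 without E12.5, Tet2 -0.025 in thinned cells, -0.025 with 1 marker only and -0.052 without E17.5, and Tet3 -0.0058 without E16.0, -0.032 without E17.5 and -0.026 without the 3 E17.5 libraries. In Eomes-detected cells with 1 marker only Dnmt1 gave -0.16, Tet1 0.045, Tet2 0.00084 and Tet3 -0.20, while Tet1 gave 0.037 without E12.5 and Tet3 -0.041 without E17.5. In Neurod6-detected cells Dnmt1 gave -0.010 with 1 marker only. There Uhrf1 gave 0.044 with 2 UMIs, 0.060 in thinned cells, 0.012 without E12.5, 0.014 without the 3 E17.5 libraries and 0.00047 without the E14.5 F1 pair, and Tet2 gave -0.011, -0.070, -0.0015 with 1 marker only, -0.057 without E17.5 and -0.065 without the 3 E17.5 libraries. In Gad2-detected cells Dnmt1 gave 0.0086 with library totals, 0.0021 without the filter, 0.030 with doublets kept, 0.11 in thinned cells, 0.053 with 1 marker only, 0.15 without E12.5, 0.0057 without E16.0 and 0.031 without the 3 E17.5 libraries. Uhrf1 gave -0.36 with 2 UMIs and -0.21 with the replicate block, and Tet1 0.057 with the block. Tet2 gave -0.086 with the block, -0.020 without E14.5, -0.17 without E17.5 and -0.071 without the 3 E17.5 libraries, and Tet3 gave 0.17 with 2 UMIs, 0.046 in thinned cells, 0.014 without E12.5 and 0.028 without E14.5.

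From E12.5 to E17.5 the other sign appeared for Dnmt3a in Sox2-only cells (0.0087), for Dnmt3b (0.10 and 0.026 with 2 UMIs and in thinned cells) and Tet2 (-0.033 with 2 UMIs and -0.064 without the 3 E17.5 libraries) in Eomes-detected cells, for Dnmt1 (0.10, 0.14 and 0.41 with 2 UMIs, in thinned cells and with 1 marker only) and Dnmt3b (0.055 with 1 marker only, and 0.11 from E12.5 to E14.5) in Neurod6-detected cells, and for Dnmt1 in thinned Gad2-detected cells (0.36). Between cycling and other cells Tet1 gave 0.013 without the filter, 0.035 with 2 UMIs and 0.0074 with doublets kept, Tet2 -0.00068 with library totals and -0.058 with 2 UMIs, and Tet3 0.14 in thinned cells.

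Fits without 1 library crossed 0 for these values. Between genotypes they ran from -0.12 to 0.029 for Tet1 and -0.013 to 0.064 for Tet3 in Sox2-detected, from -0.12 to 0.032 for Tet1 in Eomes-detected, and from -0.036 to 0.11 for Dnmt1, -0.11 to 0.060 for Uhrf1 and -0.031 to 0.049 for Tet2 in Neurod6-detected cells. In Gad2-detected cells they ran from -0.14 to 0.078 for Dnmt1, -0.097 to 0.23 for Uhrf1, -0.16 to 0.36 for Tet2 and -0.51 to 0.0028 for Tet3. Between stages they ran from -0.065 to 0.29 for Tet2 in Eomes-detected and from -0.60 to 0.016 for Uhrf1 and -0.064 to 2.01 for Tet2 in Gad2-detected cells. Between cycling and other cells they ran from -0.026 to 0.048 for Tet1, -0.041 to 0.10 for Tet2 and -0.082 to 0.00055 for Tet3. Depth limits Gad2-detected and Gad2-only cells and Dnmt3b most, as their UMI counts show.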
